A study of Anopheles gambiae with 8 samples.

Results

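Basement membrane genes of *An. gambiae* were examined in Sua 4.0 cells after treatment with the steroid hormone 20-hydroxyecdysone (20E). The set was 6 of the 13763 genes in the deposited count table, picked by gene identifier: the collagen IV genes AGAP009200 and AGAP009201, the laminin subunit genes AGAP004993, AGAP001381 and AGAP007629, and the SPARC gene AGAP000305. All 6 were among the 8180 genes that passed the expression filter, and none came near its limit, since the lowest count of any member in any library was 40. The question was whether these genes rose together after 20E within each replicate number, and whether they shared the high level of collagen IV in replicate 1.

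The basement membrane, called basal lamina in mosquito work, is a sheet of secreted protein that lines organs facing the hemolymph. Collagen IV chains wind into triple helices that cross-link into its network. Laminins, secreted as trimers of different subunits, polymerize into a second network that contacts cell receptors such as integrins. SPARC is a small secreted glycoprotein that binds collagen, and in *Drosophila* it is needed for collagen IV to be deposited properly. In *Drosophila* hemocytes and fat body are the main sources of collagen IV. Sua 4.0 is an established *An. gambiae* cell line. In mosquitoes 20E is made after a blood meal, binds a nuclear receptor and switches on a cascade of transcription factors.

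Cells in 4 cultures received 20E in ethanol and cells in 4 control cultures received ethanol (EtOH) alone, and RNA was taken 24 h later. The labels give the ethanol as 10%, whereas the methods describe it as undiluted. Both groups carry the replicate numbers 1 to 4, and the series describes the samples as coming from independent experiments. All cultures are of a single cell line, so the values describe cultured cells and not an organ with its basal lamina.

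The libraries held from 6865599 to 14878014 counts, and replicate 1 had the lowest total in both groups. Levels are given as CPM, in which each count is divided by its library's size after TMM scaling in edgeR. The hormone response was present in every 20E library. *HR4* (AGAP004693), an early ecdysone-response nuclear receptor, ranged from 97.2 to 148 CPM in the 20E libraries and from 0.0763 to 0.285 CPM in the EtOH libraries. Counts were compared with edgeR's quasi-likelihood test, without and with the replicate number as a block, and a gene was called where its p, adjusted by the Benjamini-Hochberg method over all 8180 genes, did not exceed 0.1. In bulk RNA, more RNA per cell and more cells of an expressing kind cannot be told apart.

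The 6 genes did not move together. With the replicate number as a block, collagen IV AGAP009200 was 21.8-fold higher after 20E (95% interval 14.3 to 33.3), SPARC was 1.38-fold lower (1.12 to 1.69) and laminin subunit AGAP007629 was 1.27-fold lower (1.06 to 1.51). The second collagen IV gene and the other laminin subunits did not pass the test. Without the block edgeR's quasi-likelihood test called 0 of 6 members, against 0.795% of all genes tested (65 of 8180), and 1 member, AGAP009200, had an unadjusted p under 0.05, against 6.81% of all genes. With the block 3 members were called, against 17.4% of all genes. AGAP009200 was called higher, against 8.34% of all genes, and AGAP007629 and SPARC were called lower, against 9.11% of all genes. edgeR's exact test, without the block, called 1 member, AGAP009200, among 120 genes in all. DESeq2 without the block called 0 members and 195 genes in all.

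**Figure D1:**
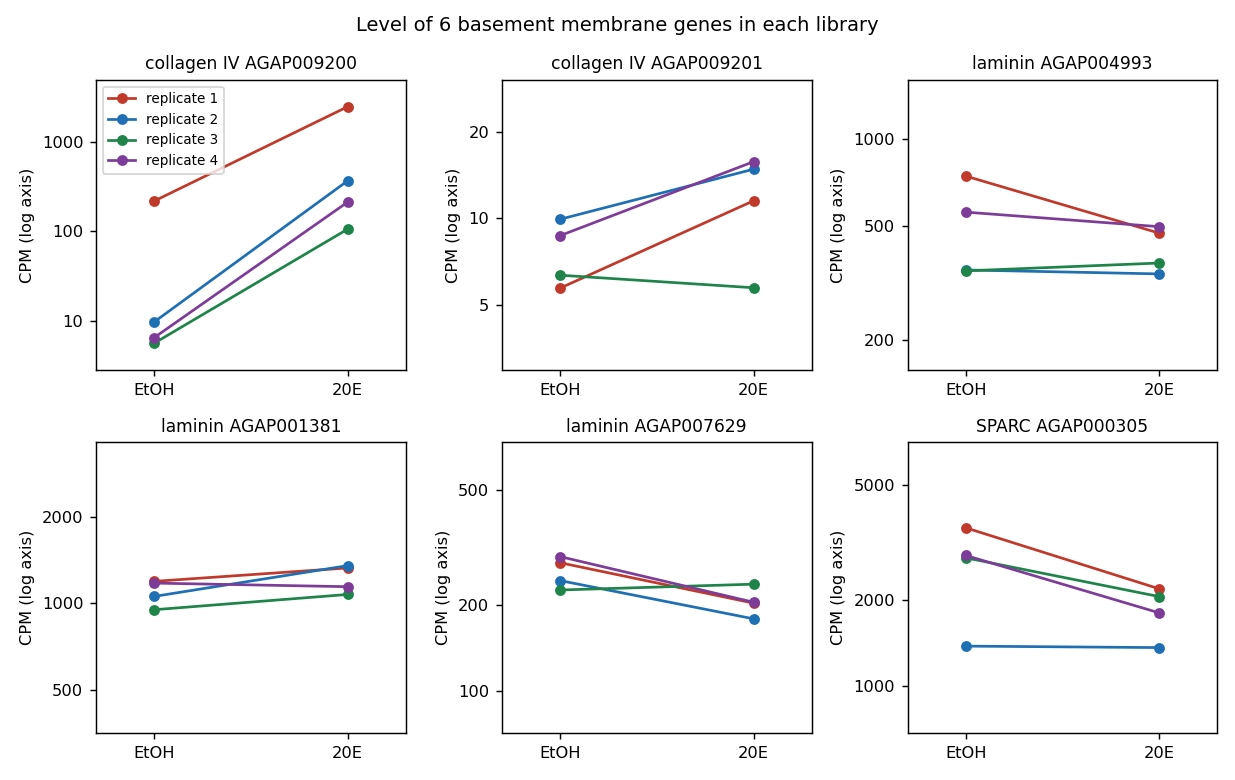
Level of each gene in EtOH and 20E libraries in CPM on log axes, with a line joining the libraries of 1 replicate number; the AGAP009200 panel spans a wider range than the other 5, which share the same span. All 4 AGAP009200 lines climb, from 5.57 to 217 CPM in EtOH libraries to between 106 and 2471 CPM after 20E. The SPARC lines slope down or are flat. Of the laminin genes, AGAP007629 slopes down in replicates 1, 2 and 4, and AGAP004993 mainly in replicate 1. The AGAP001381 lines rise slightly or stay near level.

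AGAP009200, annotated as a collagen type IV alpha chain, lies on 3R from 28613496 to 28620808 of AgamP4, on the minus strand. It had 15695, 5296, 1750 and 2749 counts in 20E replicates 1, 2, 3 and 4, and 1520, 103, 73 and 71 counts in the EtOH replicates. In CPM the 20E libraries thus had 2471, 366, 106 and 212, and the EtOH libraries 217, 9.63, 5.57 and 6.43. The groups overlapped, since EtOH replicate 1 lay above 20E replicates 3 and 4, and the other EtOH libraries lay below every 20E library. In replicate 1 after 20E this single gene took 0.229% of all counts in its library, compared with 5.38e-04% in EtOH replicate 3.
Within replicate numbers 1, 2, 3 and 4 the level after 20E exceeded that after EtOH by 3.51, 5.18, 4.13 and 4.94 on the log2 scale, computed on CPM plus 0.5. These 4 differences had an SD of 0.77, while the log2 levels themselves had an SD of 1.95 among 20E libraries and 2.45 among EtOH libraries. Over all 4 replicate numbers the level thus varied more than the response did. These SDs include replicate 1, by far the highest library of both groups, and were not computed without it. In the blocked fit the gene rose by 4.45 on the log2 scale (95% interval 3.84 to 5.06, standard error 0.27), at an adjusted p of 1.62e-05 by edgeR, and this was rank 10 in size among the increases of 8180 genes. The fit without the block gave 3.73 (standard error 1.53), at an adjusted p of 0.688 by the same test. When both libraries of replicate 1 were left out the gene was called even without the block, at a log2 fold change of 4.98 (adjusted p = 0.0273 from edgeR). With the block it was called whichever replicate number was left out, at 4.18 to 4.86. Leaving out 20E replicate 1 or EtOH replicate 1 alone, without the block, gave 1.96 and 6.77, and neither was called (adjusted p = 0.880 and 0.119 from edgeR).

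AGAP009201, the other collagen IV gene, lies beside AGAP009200 on 3R from 28646812 to 28654237, on the plus strand. The genes point away from each other across 26003 bases that hold 0 other listed genes, and neither overlaps another listed gene. AGAP009201 had 73, 214, 95 and 204 counts in 20E replicates 1 to 4 and 40, 106, 83 and 96 in the EtOH replicates. Its CPM in the same order were 11.5, 14.8, 5.73 and 15.7, then 5.70, 9.91, 6.33 and 8.69, and the groups overlapped. It was higher after 20E in replicates 1, 2 and 4, by 0.95, 0.56 and 0.82 on the log2 scale, and not in replicate 3, at -0.13. It was not called without the block (log2 fold change 0.64, standard error 0.35, adjusted p = 0.928 from edgeR) or with it (0.57, standard error 0.21, 95% interval 0.10 to 1.03, adjusted p = 0.114). With replicate 3 left out the blocked fit did call it, at 0.79 (adjusted p = 0.0429 from edgeR).

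The balance between both collagen IV transcripts differed widely between libraries. The CPM of AGAP009200 was 0.972, 0.880 and 0.740 times that of AGAP009201 in EtOH replicates 2, 3 and 4, and 38 times in EtOH replicate 1. After 20E it was 215, 24.7, 18.4 and 13.5 times in replicates 1 to 4. Their listed spans, 7313 and 7426 bases, are close, so the ratios per kb of span are nearly the same (0.751 to 38.6 after EtOH and 13.7 to 218 after 20E). The ratio was larger after 20E in 4 of 4 replicate numbers, by 5.66-fold in replicate 1 and by 25.5-fold, 20.9-fold and 18.2-fold in replicates 2, 3 and 4. As unpaired groups the log2 ratios were 5.08 ± 1.81 after 20E and 1.15 ± 2.74 after EtOH (SD, n = 4 each), a difference of 3.94 that did not pass an exact permutation test (two-sided p = 0.114, 8 of 70 splits at least as far apart). Those splits ignore the replicate numbers, and an exact test of 4 pairs by sign flips cannot go below p = 0.125. Neither thus decides on the change within replicate numbers. The ratio was singled out after the levels had been seen.

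**Figure D2:**
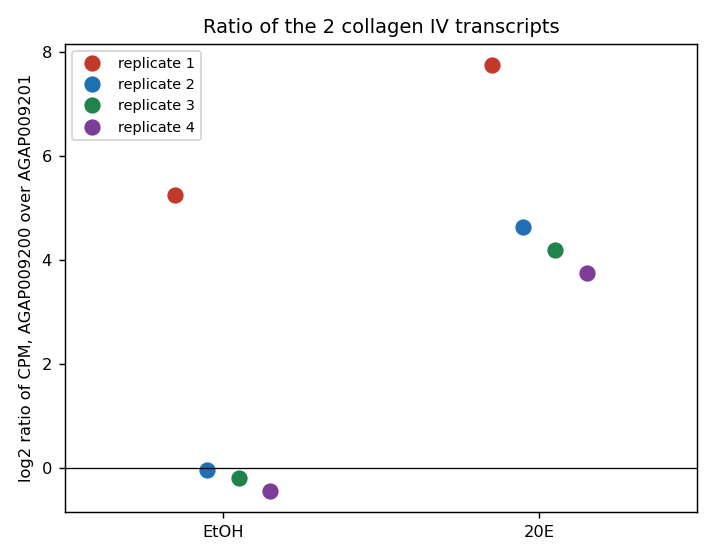
Log2 of the CPM ratio of AGAP009200 to AGAP009201 in each library (vertical axis) by treatment, with colors for the replicate number. EtOH replicates 2 to 4 sit near 0, EtOH replicate 1 at 5.25, and the 20E libraries between 3.75 and 7.75, so replicate 1 is the highest in both groups.

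Laminin subunit AGAP001381 (2R from 4053093 to 4061875) was abundant and steady. Its 20E replicates 1 to 4 had 1327, 1352, 1073 and 1142 CPM, and its EtOH replicates 1192, 1057, 949.9 and 1176. The groups overlapped, and the differences within replicate numbers were 0.16, 0.36, 0.18 and -0.04 on the log2 scale. In the blocked fit it changed by 0.16 on that scale (95% interval -0.07 to 0.39) with an adjusted p of 0.362 from edgeR, so it was not called, and the upper end of the interval was a 1.31-fold increase.
Subunit AGAP004993 (2L from 7592420 to 7608179) had 471, 339.9, 371 and 496 CPM after 20E and 744, 351, 348 and 558 CPM after EtOH. It differed most in replicate 1, where it was lower after 20E by a log2 difference of -0.66, against -0.05, 0.09 and -0.17 in replicates 2 to 4. The blocked log2 fold change was -0.19 (95% interval -0.48 to 0.09, adjusted p = 0.370 from edgeR). Without EtOH replicate 1, in the fit without the block, its log2 fold change was 5.5e-04.
Subunit AGAP007629 (2L from 48472475 to 48483780) was the laminin gene that differed from its controls in the blocked test. It had 203, 179, 236 and 204 CPM after 20E and 280.1, 243, 225 and 294 CPM after EtOH. It was lower after 20E in replicates 1, 2 and 4, by -0.47, -0.44 and -0.53 on the log2 scale, and not in replicate 3, at 0.07. In the blocked fit it fell by 0.34 on that scale, with a standard error of 0.11 and an adjusted p of 0.0860 by edgeR. It was not called when replicate 1, 2 or 4 was left out of that fit (adjusted p = 0.211, 0.217 and 0.273), and without the block its adjusted p was 0.733. A short gene on the other strand, AGAP007630, lies inside its span and had 0 counts.
Which subunit of the laminin trimer each gene encodes is not given in the sources used here. Of the 3 subunit genes, 1 was called, lower after 20E and only with the block, where 9.11% of all genes were called lower.

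SPARC (AGAP000305, X from 5410362 to 5411262) was lower after 20E in replicates 1, 3 and 4 and nearly equal in replicate 2. In 20E replicates 1 to 4 it had 2179, 1362, 2048 and 1798 CPM, and 3555, 1378, 2795 and 2850 CPM were found after EtOH. Replicate 2 was the lowest library of both groups, with nearly equal levels, and the groups overlapped. Before TMM scaling SPARC took 0.159% of the counts of 20E replicate 2 and 0.149% of those of EtOH replicate 2. The direction in replicate 2 thus depended on the scaling. The differences within replicate numbers were -0.71, -0.02, -0.45 and -0.66 on the log2 scale. In the blocked fit SPARC fell by 0.46 on the log2 scale (standard error 0.13, 95% interval -0.75 to -0.17), with an adjusted p of 0.0504 from edgeR. Without the block the log2 fold change was -0.52 and the adjusted p 0.953. The call was lost in the blocked fit without replicate 1, 3 or 4 (adjusted p = 0.173, 0.136 and 0.214), and held without replicate 2 (0.0145).

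**Figure D3:**
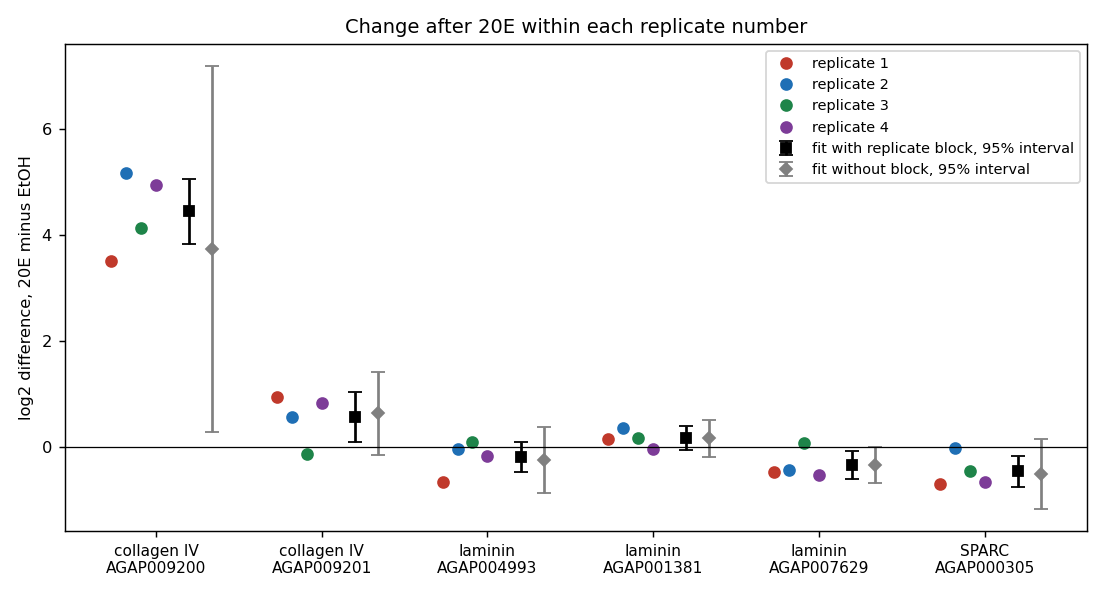
Log2 difference between 20E and EtOH (vertical axis) for each gene, with circles for the 4 replicate numbers, black squares for the fit with the replicate block and grey diamonds for the fit without it, both with 95% intervals. AGAP009200 stands between 3.51 and 5.18, and every circle of the other 5 genes lies between -0.71 and 0.95.

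Counted by experiment, 3 of 6 members were higher after 20E in replicate 1, 3 in replicate 2, 4 in replicate 3 and 2 in replicate 4. Over all genes tested the median log2 difference was near 0 in each replicate number, from 0.00464 to 0.0112. A near even split was thus not particular to the members. Being higher in 4 of 4 replicate numbers held for 1 member (AGAP009200), against 17% of all genes, and being lower in 4 of 4 for 1 member (SPARC), against 16.2% of all genes. For SPARC this rests on a difference of -0.02 in replicate 2, whose sign depended on the scaling. The groups were free of overlap for 0 members, against 4.73% of all genes. The median blocked log2 fold change of the 6 was -0.02, compared with 0.01 over all genes tested. Across the 8 libraries the log2 level of AGAP009200 correlated with that of AGAP001381 at r = 0.76, with AGAP009201 at 0.38, with AGAP004993 at 0.22, with SPARC at -0.15 and with AGAP007629 at -0.54. AGAP004993, AGAP007629 and SPARC varied alike, at 0.70 (AGAP004993 with SPARC), 0.67 (AGAP007629 with SPARC) and 0.58 (AGAP004993 with AGAP007629). AGAP009201 ran against SPARC (-0.68) and AGAP007629 (-0.67), and with AGAP001381 it gave 0.55. The remaining pairs lay between -0.35 and 0.29. The same 8 libraries enter each value, along with their shared replicate numbers, so these are descriptions only.

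Levels between genes were compared per kb of listed gene span, which includes introns. SPARC was the highest in every library, at 1511 to 3946 CPM per kb. AGAP001381 had 108 to 154, AGAP004993 21.6 to 47.2 and AGAP007629 15.8 to 26.0 CPM per kb. AGAP009201 had 0.768 to 2.12 CPM per kb. AGAP009200 ranged from 0.762 CPM per kb in EtOH replicate 3, beside its low neighbor, to 338 in 20E replicate 1, above every laminin subunit of that library. In EtOH replicates 2 to 4 both collagen IV genes were thus far below SPARC and the 3 laminin subunits on this scale.

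Levels differed between experiments in most genes, members or not. The replicate number, as a term with treatment in the same edgeR quasi-likelihood fit, was called for 4 of 6 members (AGAP009200, AGAP009201, AGAP004993 and SPARC), against 68% of all genes, which is close to the members' share. Replicate 1 of AGAP009200 lay above the mean of replicates 2 to 4 by 3.61 on the log2 scale after 20E and by 4.85 after EtOH. By size these differences ranked 35 and 14 among the 8180 genes. SPARC was also highest in replicate 1 in both groups, by 0.35 and 0.68, and 20.3% of all genes were highest there in both. AGAP004993 was 0.25 and 0.87 higher in replicate 1 but not the highest after 20E. AGAP001381 was 0.17 higher in both groups, AGAP007629 gave -0.02 and 0.15, and AGAP009201 gave 0.05 after 20E and -0.48 after EtOH. Among the 682 genes called higher with the block, 152 (22.3%) were highest in replicate 1 in both groups.
Levels of marker genes of other cell kinds were also compared between replicate 1 and the rest. A pair of fat body genes, for vitellogenin and the apolipophorin precursor, summed to 5029 CPM in 20E replicate 1 against 2195 to 2376 CPM in 20E replicates 2 to 4, and to 2707 CPM in EtOH replicate 1 against 1049 to 1491 CPM. The sum was 1.86, 1.70, 1.59 and 2.16 times as high after 20E as after EtOH in replicates 1 to 4. Its members went opposite ways, since apolipophorin (AGAP001826) was higher after 20E in every replicate number (1.71 to 2.51 times) and vitellogenin (AGAP004203) lower (0.595 to 0.936 times). A list of 8 prophenoloxidase genes, typical of hemocytes, summed to 317 CPM in 20E replicate 1 against 662 to 1384 CPM in the other 20E libraries, and to 455 CPM in EtOH replicate 1 against 243 to 423 CPM in the other EtOH libraries, with 7 of the 8 detected and AGAP002825 at 0. Replicate 1 was thus the lowest library after 20E and the highest after EtOH, and the sum was lower after 20E in replicate 1 and higher in replicates 2 to 4. Most of the sum came from AGAP004981 and AGAP004975 (*PPO3*), which went opposite ways in replicate 1. There AGAP004981 had 217 CPM after 20E and 382 after EtOH, and AGAP004975 had 94.5 and 67.8. In EtOH replicates 2 to 4 the former had 258, 315 and 177 CPM and the latter 85.9, 106 and 64.8 CPM. Of this pair only AGAP004981 was highest in EtOH replicate 1. The paper lists *PPO3* as upregulated by the hormone. Whether the sum follows treatment or cell kind was not tested. The part of these marker differences in the collagen IV result was not tested. The identifiers of these markers were taken from general knowledge, and the sources name *PPO3* and *PPO8* of the prophenoloxidases.

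**Figure D4:**
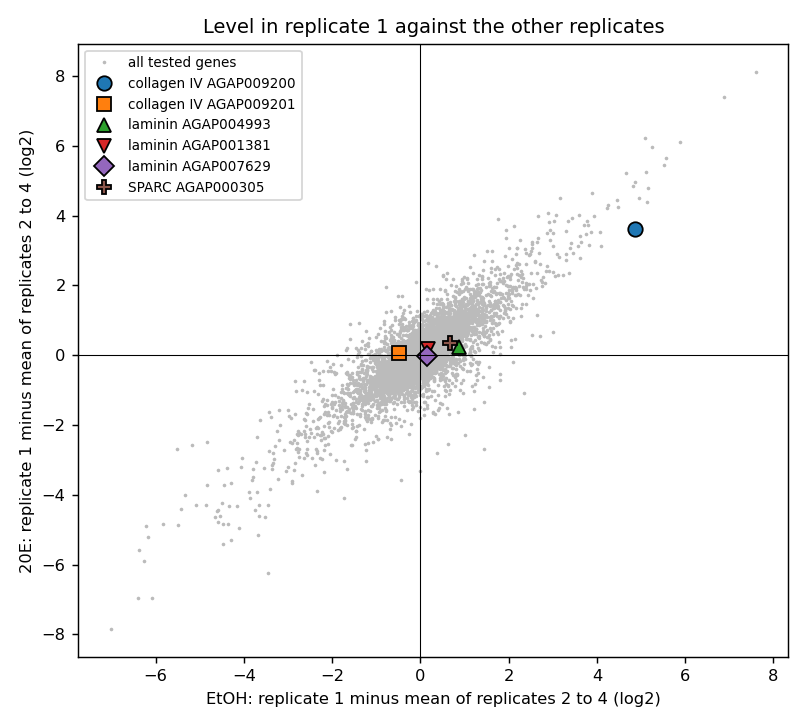
Log2 level in replicate 1 minus the mean of replicates 2 to 4 in EtOH (horizontal axis) and in 20E (vertical axis), with grey points for all 8180 tested genes and marked points for the 6 members. AGAP009200 lies far up the diagonal at 4.85 and 3.61, and the other 5 members lie within 1 log2 unit of 0 on both axes.

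The genes whose log2 levels followed AGAP009200 most closely over the 8 libraries were AGAP001669 (r = 0.97), AGAP007088 (0.97), AGAP010318 (0.97), AGAP003521 (0.97) and AGAP008626 (0.96). AGAP001669 came nearest in size, with 79.9 to 621 CPM after 20E and 9.92 to 128 CPM after EtOH and a blocked log2 fold change of 2.51 (standard error 0.19, adjusted p = 5.51e-05 from edgeR). AGAP010318 followed the same pattern over a narrow range, at 18.0 to 24.7 CPM after 20E and 15.3 to 20.7 CPM after EtOH. The genes nearest to AGAP009201 were AGAP004429 (r = 0.94), AGAP010399 (0.94), AGAP007529 (0.93), AGAP004464 (0.90) and AGAP006254 (0.90). All were picked by this correlation, so their likeness to the collagen IV genes is not a finding.

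Beside collagen IV AGAP009200, which is also listed, the study's own table of changed genes annotates a pair that relates to the matrix or its receptors. That table rests on the same 8 libraries, so the direction, p-values and lack of overlap of its genes are not independent evidence. The study called its genes with edgeR at q of at most 0.1. The paper does not name which edgeR test it used. For AGAP009200 the fit without the block gave an adjusted p of 0.688 by edgeR's quasi-likelihood test here, which called 65 genes. edgeR's exact test gave 0.0675 and called 120 genes, and with trended dispersions that test gave 0.330. The values here are thus not a check of the study's call. The paper also checked some changed genes by qRT-PCR in separate Sua 4.0 and whole mosquito samples. Its primer list includes AGAP009200, and those measurements were not used here. AGAP004201 (2R from 51715350 to 51768603), annotated as a disintegrin and metalloproteinase with thrombospondin motifs, a family of secreted matrix proteases, had a mean of 27.9 ± 9.75 CPM in the 20E libraries and 5.81 ± 2.21 CPM in the EtOH libraries (SD, n = 4 each). It rose by 2.27 on the log2 scale (standard error 0.37, adjusted p = 0.0479 from edgeR without the block). AGAP002054, a fermitin family homolog (2R from 14659703 to 14675948) of the kind that activates integrins in other animals, had 86.2 ± 27.7 CPM in the 20E libraries and 276 ± 60.8 CPM in the EtOH libraries. It fell by 1.68 on the log2 scale with a standard error of 0.27, and its adjusted p in that edgeR test was 0.0465. In both genes the 20E and EtOH libraries did not overlap, against 4.73% of all genes tested. Both were picked from genes the study called in these libraries, so a low p and a lack of overlap follow partly from that choice. With 1 library left out, edgeR did not call AGAP004201 without 20E replicate 2, 3 or 4 or EtOH replicate 1, 3 or 4 (adjusted p from 0.104 to 0.197), nor AGAP002054 without replicate 3 or 4 of either group (0.103 to 0.176). With the replicate block both were called, at adjusted p of 3.41e-04 and 2.37e-04.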

How the data were processed

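RNA-seq of 4 20E and 4 EtOH cultures of Sua 4.0 cells was analysed. The authors aligned read pairs to AgamP4 with STAR 2.5.2b, ran featureCounts on the alignments and deposited raw counts for 13763 genes. Counting kept only fragments with both ends aligned, at a single place and not chimeric. The listed length of 100% of the genes is the whole gene span, and the strand setting of the counting is not given in the sources used here. Groups and replicate numbers came from the sample titles.

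Counts were tested with edgeR 4.0.16 in R 4.3.3 (TMM, filterByExpr with a minimum count of 10 and minimum total of 15, glmQLFit and glmQLFTest) in all 8 libraries, modelling treatment alone. Each standard error divides the log2 fold change, taken without sign, by the root of F, and intervals use the test's degrees of freedom. Deviations from the group means correlated at 0.663 to 0.848 between libraries of the same number and at most at 0.0791 between others, and the series text calls the samples independent experiments, so the numbers pair the libraries and blocked values stand beside the results they change. Within pairs, CPM plus 0.5 was compared on the log2 scale. DESeq2 1.42.0 and limma 3.58.1 (voom) were alternatives, with the others given in the closing section. The scripts were tested on simulated counts. No libraries of 1 group agreed within counting noise (lowest chi-square per degree of freedom 52.9).

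The genes named are the 6 members, the 5 genes most like each collagen IV gene in log2 CPM, *HR4*, and matrix genes annotated in the sources. A wider list of matrix genes was to be taken from annotated descriptions and is not analysed here, since the reference table used does not pair these gene identifiers with descriptions. Lengths of coding sequence were not used here for the same reason, and gene spans took their place. The members and lists were chosen with earlier results of these data known.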

Additional observations from a re-analysis of the deposited data

Results flagged for a closer look

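In 12 groups of 4 libraries (6 genes in 2 treatments), 1 library was set against the other 3 by the gap to its nearest neighbor over the whole range, against Dixon's limit at 95%. About 1 in 20 such groups exceeds it by chance. AGAP009200 exceeded it in both treatments, through replicate 1, whose high level was known when the genes were chosen. In 20E that library had 2471 CPM, with a gap of 0.890 of the range, and in EtOH 217 CPM, with a gap of 0.981. On the log2 scale of CPM plus 0.5, an alternative chosen after seeing the data, the gap was 0.606 of the range in 20E, no longer past the limit, and 0.857 in EtOH, still past it. Both libraries belong to replicate number 1, which had the lowest depth of its group, so the flags are not independent of each other. The other 5 genes exceeded it in 0 groups.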

How the results depend on the processing

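The replicate block called 1427 genes and 3 members in place of 65 and 0, with log2 fold changes of 4.45 for AGAP009200, -0.34 for AGAP007629 and -0.46 for SPARC (AGAP000305). With the block and 1 replicate number left out, 1305, 1224, 844 and 870 genes and 1, 2, 3 and 1 members were called without replicates 1, 2, 3 and 4. The log2 fold change was then 4.86, 4.18, 4.52 and 4.27 for AGAP009200, and 0.45 to 0.79 for AGAP009201, -0.48 to -0.28 for AGAP007629 and -0.60 to -0.38 for SPARC. DESeq2 with the block, chosen after seeing the data, called 1289 genes and 3 members (4.50 for AGAP009200, -0.35 for AGAP007629, -0.47 for SPARC). Without the block, DESeq2 called 195 genes, and edgeR's exact test 120 genes and 1 member (AGAP009200, 3.73, adjusted p = 0.0675). Trended dispersions in the exact test, also added later, called 141 genes and no longer AGAP009200 (adjusted p = 0.330). Over the alternatives without the block, apart from those said to be added later, the adjusted p of AGAP009200 ran from 0.0675 to 0.9998. An adjusted p of at most 0.05 left 32 genes. Leaving out 1 library without the block gave 16 to 39 genes where the count moved by over 1.5 times (16 without EtOH replicate 4, 19 without 20E replicate 4), 0 members, and a range of 1.96 to 6.77 for AGAP009200 and -0.39 to 5.5e-04 for AGAP004993. The last changed sign without EtOH replicate 1. Leaving out both libraries of replicate 1 without the block, chosen after seeing the data, called 1 member (AGAP009200, 4.98). The causes were not tested, beyond fewer libraries in some fits. The replicate number term called 3 or 4 members in every alternative. The alternatives for the wider matrix gene list were not run. Counts were lowest in the collagen IV genes, with 40 to 214 counts per library for AGAP009201 and 71 to 103 for AGAP009200 in EtOH replicates 2 to 4.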

Other observations

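The 5 tested genes on the side of AGAP009200 away from AGAP009201 (AGAP009193 to AGAP009199, between 28595948 and 28612148 on 3R) had higher levels in replicate 1 than in the mean of replicates 2 to 4, by 0.67 to 2.30 on the log2 scale after 20E and 0.90 to 1.70 after EtOH. 4 of these 5 were highest in replicate 1 in both groups. Of the 5 on the other side, from AGAP009201 to AGAP009206, 1 was (AGAP009206, at 1.21 and 1.12), and 20.3% of all genes tested were. With the replicate block edgeR called 1 of the 10 flanking genes, AGAP009193, which fell by 0.72 on the log2 scale after 20E (adjusted p = 0.00995), while 17.4% of all genes were called. These genes were looked at after the values of AGAP009200 had been seen.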
